A study of Mus musculus with 157 samples.

Results

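Etoposide was compared with no further treatment in the light polysomes of LPS-activated mouse B cells. Splenic B cells of adult C57BL/6Babr mice were cultured for 48 h with LPS at 10 µg/ml, and both groups carried this LPS treatment. One group had no further treatment (LPS), and the other also received 20 µM etoposide for 4 h (LPS+ET). All cells had cycloheximide at 100 µg/ml for 3 min before lysis, and their cytoplasmic extracts were spread on sucrose gradients. The labels and the columns of the count table gave the members: fractions 8, 9 and 10, the light polysomes, of 4 gradients of LPS and 4 of LPS+ET, which are 24 of the 157 libraries of the series. A gradient is named by its treatment and by the tag LUL15 to LUL18 in its column names. The tag is called its pool here, though the column names do not say what it stands for. Every pool held 1 gradient of each treatment. One more treatment entered the fits for its spread alone. It had LPS for 47 h, and 10 µM KU55933, an inhibitor of the kinase ATM, was added 1 h before etoposide. The study describes its 4 replicates as biological. The sources do not say whether the gradients came from separate mice, so p-values measure the spread between these gradients.

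A polysome is an mRNA with several ribosomes on it, and in a gradient it sinks further the more ribosomes it carries. Light polysomes hold mRNAs with few ribosomes, between the monosomes (fractions 4 to 7) and the heavy polysomes (fractions 11 to 16). The number of ribosomes an mRNA can carry depends on how often translation starts on it, how long its coding sequence is and how long the ribosomes need to cross it. Etoposide traps topoisomerase II on DNA, which leaves double-strand breaks. Such breaks activate ATM, and p53, the protein of the gene Trp53, then builds up and switches on genes of cell-cycle arrest, cell death and repair. LPS acts through the receptor TLR4 and drives B cells into division and towards antibody secretion.

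Each library held 3′ end tags, with duplicates removed by 5 random barcode bases. The method is meant to count an mRNA at its 3′ end and not along its length, though some genes were counted away from an annotated transcript end. The 24 libraries held 116995 to 2762807 tags with a median of 1015418. Equal RNA concentrations went into the libraries, and a level is therefore a share of the mRNA in that fraction and not an amount. It is given here in CPM, tags of a gene per 1e+06 tags of the library, averaged over the 3 fractions of a gradient. The shallowest library, fraction 10 of the LPS+ET gradient of pool LUL16, stood apart by its depth, and without it 2589 genes were called in the test below. Levels of LPS gradients correlated across genes at r of 0.930 to 0.978 and those of LPS+ET gradients at 0.859 to 0.965. The 8 B cell markers summed to 7282 to 8903 CPM in LPS and 5496 to 8068 CPM in LPS+ET. Of the 7 that passed the filter on low counts, 5 were lower in LPS+ET. The 8 T cell markers in the table summed to 164 to 211 CPM in LPS and 139 to 399 CPM in LPS+ET, nearly all of it Lck, which B cells can also express. Myeloid markers summed to 49.0 to 166 CPM and 75.7 to 299.8 CPM, and of 8 tested only Cd68 passed (1.59 ± 0.44 on the log2 scale, adjusted p = 0.0081). NK cell markers reached at most 1.95 CPM and erythroid markers 1.33 CPM. In bulk samples a change in the share of a cell type and a change in its mRNA cannot be told apart.

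Etoposide changed the light polysomes widely. For each gradient the tags of the 3 fractions were added up and tested with edgeR's quasi-likelihood F-test with the pool as a block, and a gene was called at an adjusted p under 0.01. Of 10641 genes tested, 2614 were called, which is 24.6%. Of these, 1351 were higher in LPS+ET (12.7% of genes tested) and 1263 were lower (11.9%). The median absolute change of the called genes was 1.11 on the log2 scale, and 1539 changed by more than 1, with 961 higher and 578 lower. The direction was the same in all 4 pools for 2487 of the called genes. The LPS and LPS+ET gradients did not overlap in mean CPM for 1819 of the called genes, against 24.1% of all genes tested. Without the block 1055 genes were called, all of them among the 2614, with 651 higher (61.7%) and 404 lower. With equal weight for each fraction, 2442 genes were called and 63.8% of them were higher, against 51.7% in the summed counts. That scaling moved the median change of all genes from 0.0039 to 0.12. Without pool LUL15 or LUL17 the count of called genes was 1580 or 1700, and without LUL16 it was 3099.

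Targets of p53 rose in light polysomes, while no change of the mRNA of p53 itself passed the test. Cdkn1a encodes p21, the inhibitor of cyclin-dependent kinases through which p53 stops the cell cycle. Its level was 24.2, 28.6, 28.4 and 42.8 CPM in LPS, given here and below in the order of the pools from LUL15 to LUL18. In LPS+ET it was 827, 818.5, 632 and 807 CPM. The groups lay far apart, and the log2 change was 4.45 ± 0.18 (SE; adjusted p = 6.6e-12). Trp53 (chr11:69580359-69591873 of GRCm38, forward strand) held 131, 223, 127 and 190.2 CPM in LPS and 188, 255, 133 and 183 CPM in LPS+ET. These ranges overlapped, and the change was 0.10 ± 0.14 (adjusted p = 0.625), with the direction turning to -0.015 without pool LUL15.

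A stretch of the promoter of Cdkn1a (gene at chr17:29090979-29100722, forward strand) is shown, because p53 binds pairs of its consensus decamers as a tetramer. In the RefSeq promoter on GRCm38.p6, a script found a pair of p53 consensus decamers of 10 bases each at chr17:29090906-29090937, -73 to -42 from the start. The capitals mark the decamers.
Cdkn1a: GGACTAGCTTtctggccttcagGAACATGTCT
Pairs with a spacer of at most 13 bases were found in 24 of 32851 promoters (0.0731%; 250 bases before to 50 after the start). Among the 36 genes of the p53 lists with a promoter in the table, Cdkn1a was the only one with such a pair in this window. The pair is a match of letters that was not tested as a site, and sequence outside the window was not searched.

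Of 8 tested genes on the list of Trp53 and its regulators, 3 rose and none fell. Of all genes tested, 12.7% were higher and 11.9% lower, and the same shares stand behind the p53 target lists that follow. The median of the list was 0.30, against 0.0039 for all genes tested. Mdm2, the ubiquitin ligase that marks p53 for degradation, held 74.9, 76.4, 76.8 and 92.4 CPM in LPS and 477, 303, 504 and 458 CPM in LPS+ET. All LPS+ET gradients lay above all LPS gradients, at a log2 change of 2.36 ± 0.16 (adjusted p = 3e-09). Ppm1d, the phosphatase Wip1 that acts on ATM and p53, rose by 1.95 ± 0.19 (adjusted p = 2.9e-07). Mdm4, a relative of Mdm2 that holds p53 inactive, rose by 1.01 ± 0.16 (adjusted p = 5.7e-05). Trp53, Trp53bp1, Rchy1, Usp7 and Rfwd2 were not called.

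Targets of p53 in cell-cycle arrest rose in 7 of 10 cases with a median of 2.06. Ccng1, which encodes cyclin G1, held 99.5, 80.5, 75.1 and 85.6 CPM in LPS and 1297, 807, 884 and 864 CPM in LPS+ET. That is a log2 change of 3.40 ± 0.19 (adjusted p = 3.3e-10), with all LPS+ET gradients higher. Zmat3, an RNA-binding protein, rose by 3.46 ± 0.17 (adjusted p = 6.2e-11). Sesn2, a sestrin that restrains mTORC1, rose by 2.53 ± 0.15 (adjusted p = 6.0e-10), whereas its relative Sesn1 was at -0.15 ± 0.20 (adjusted p = 0.603). Gadd45a, a stress sensor, was at 0.75 ± 0.23 (adjusted p = 0.0161) and missed the threshold. Btg2, Ddit4 and Plk2 were also called higher, and Plk3 was not called.

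Death genes of p53 rose in 12 of 12 tested cases, with a median of 2.59 and a range of 1.17 to 5.55. Tnfrsf10b, the death receptor for the ligand TRAIL, held 4.78, 2.70, 5.31 and 3.11 CPM in LPS and 72.0, 58.3, 80.9 and 61.5 CPM in LPS+ET. The log2 change was 3.98 ± 0.20 (adjusted p = 6.4e-11). Fas, another death receptor, rose by 2.69 ± 0.21 (adjusted p = 1.4e-08). Pmaip1, which encodes the BH3-only protein Noxa, rose by 2.57 ± 0.16 (adjusted p = 8.6e-10). Trp53inp1, a cofactor of p53, rose by 2.61 ± 0.18 (adjusted p = 3.1e-09).

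Repair and metabolism targets rose in 9 of 14 tested cases with a median of 1.22. Phlda3, which competes with AKT for membrane lipids, held 10.0, 9.50, 4.27 and 7.45 CPM in LPS and 613, 549, 274 and 259 CPM in LPS+ET. The LPS+ET gradients of pools LUL15 and LUL16 were higher than the other two, and all lay far above LPS. Its log2 change was 5.46 ± 0.25 (adjusted p = 3.1e-11). Dcxr, a carbonyl reductase, rose by 3.54 ± 0.23 (adjusted p = 1.9e-09), and Ephx1, an epoxide hydrolase, by 3.07 ± 0.19 (adjusted p = 8.6e-10). Polk, a polymerase that copies damaged DNA, rose by 2.95 ± 0.20 (adjusted p = 3.6e-09). Gpx1, the abundant glutathione peroxidase, was at -0.17 ± 0.17 (adjusted p = 0.478).

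**Figure D1:**
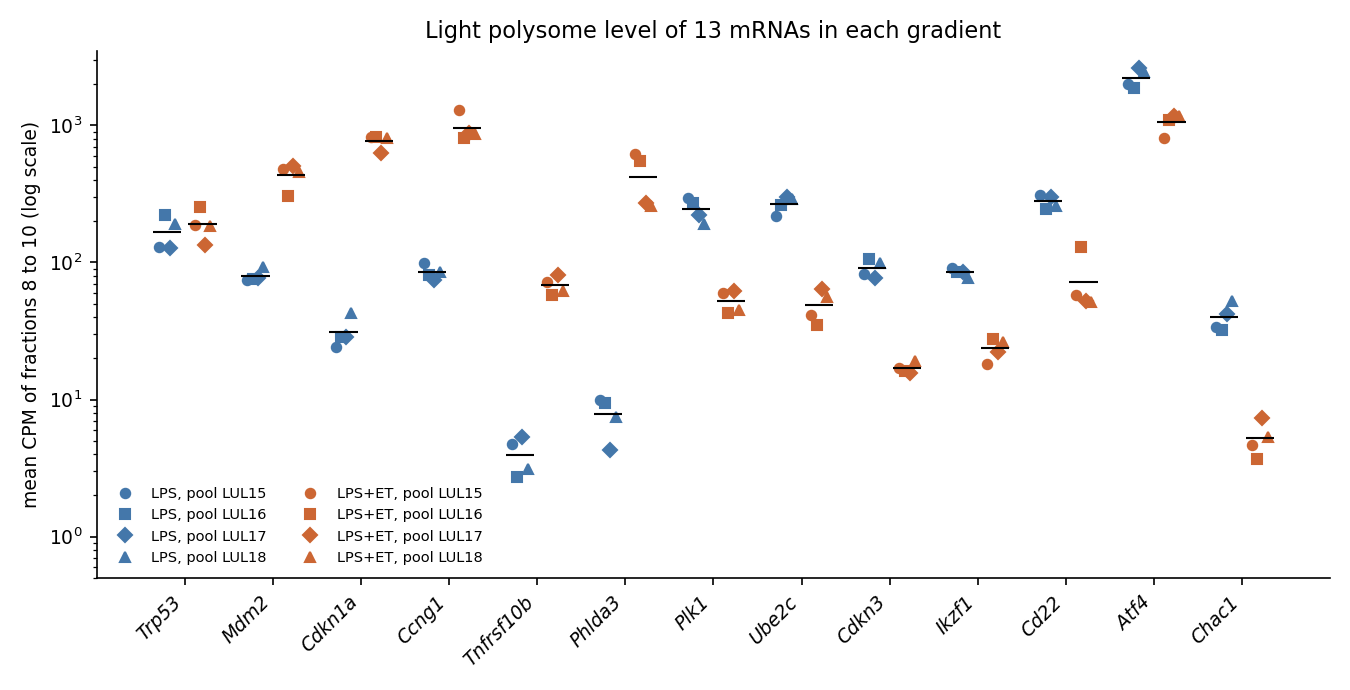
Mean CPM of fractions 8 to 10 (log axis) of 13 mRNAs in the 4 LPS gradients (blue) and 4 LPS+ET gradients (orange); symbols mark the pool and bars the mean. Trp53 overlaps between treatments, the 5 p53-related genes to its right are higher in every LPS+ET gradient, and the other 7 are lower in every LPS+ET gradient.

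The largest rises were in genes that were close to absent from LPS light polysomes, so their folds are set by few tags. Pdgfa, Robo3, Svop, Hes2 and Prss56 had 0 tags over the 4 LPS gradients and 130, 126, 86, 89 and 81 in LPS+ET. With 3 tags over the group as the floor, they were at least 62.7-, 60.7-, 41.5-, 42.9- and 39.1-fold higher. Pdgfa encodes a platelet-derived growth factor chain, Robo3 an axon guidance receptor and Hes2 a repressor of the Hes family. Bpifb4 had 1 tag in LPS and 159 in LPS+ET, a ratio of 230 with an exact 95% counting interval of 40.7 to 9140. Zfp365, a zinc finger protein, held 1.89, 0.994, 0.376 and 0.487 CPM in LPS and 166, 85.6, 104 and 103 CPM in LPS+ET, a change of 6.71 ± 0.45 (adjusted p = 2.0e-09). Other large rises were 1700007K13Rik (7.06 ± 0.45, adjusted p = 1.5e-09) and 9530053A07Rik (6.63 ± 0.57, adjusted p = 5.2e-08). Intervals and floors cover counting error only.

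Among the 10 largest falls, 3 genes were on the mitosis list. The lists of the integrated stress response, of break signalling and repair and of replication histones held 1 each. Chac1, a glutathione-degrading enzyme that ATF4 induces, held 33.7, 32.4, 42.1 and 52.8 CPM in LPS and 4.66, 3.70, 7.36 and 5.33 CPM in LPS+ET. It fell by 3.02 ± 0.24 on the log2 scale (adjusted p = 2.6e-08). H2afx, the histone variant that is phosphorylated at DNA breaks, fell by 2.82 ± 0.19 (adjusted p = 2.9e-09). Per1, a component of the circadian clock, fell by 2.72 ± 0.21 (adjusted p = 1.7e-08). Pif1, a DNA helicase, fell by 2.72 ± 0.31 (adjusted p = 1.8e-06). Hist3h2a, a histone H2A gene, fell by 2.69 ± 0.20 (adjusted p = 6.3e-09). DUSP12, as the table spells it, fell by 2.97 ± 0.58 (adjusted p = 0.00056) and I830012O16Rik by 2.64 ± 0.36 (adjusted p = 1.6e-05), both from low counts. I830012O16Rik belongs to the Ifit family, whose members share sequence, so its counts are uncertain. The others, Cdkn3, Ube2c and Fam64a, are on the mitosis list.

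Mitotic mRNAs fell as a group. Of 41 tested, 23 fell and 2 rose, against 11.9% and 12.7% of all genes tested, and the median was -0.83. The same shares stand behind the counts of every list below. Ube2c, the E2 enzyme of the anaphase-promoting complex, held 219, 261, 302 and 289 CPM in LPS and 41.2, 34.8, 64.2 and 56.3 CPM in LPS+ET. It fell by 2.43 ± 0.17 (adjusted p = 3.4e-09). Plk1, the kinase that drives entry into mitosis, held 295, 271, 221 and 192 CPM in LPS and 59.9, 42.7, 61.7 and 44.97 CPM in LPS+ET. Its fall was 2.42 ± 0.17 (log2 change -2.42, adjusted p = 4.5e-09), and the groups did not overlap. Cdkn3, a phosphatase of CDKs, held 82.0, 107, 76.8 and 99.1 CPM in LPS and 16.9, 16.3, 15.6 and 19.1 CPM in LPS+ET, a log2 change of -2.58 ± 0.18 (adjusted p = 3.4e-09). Fam64a, a regulator of the metaphase to anaphase transition, was at -2.42 ± 0.35 (adjusted p = 3.1e-05). Aurka, Cdk1, Ccnb1 and Prc1 were among the other falls. The genes that rose, Psrc1 and Gtse1, encode proteins of the spindle and microtubules that are also known p53 targets. Psrc1 held 7.84, 6.57, 7.44 and 8.59 CPM in LPS and 57.9, 36.7, 70.8 and 78.3 CPM in LPS+ET, at a change of 2.82 ± 0.24 (adjusted p = 3.8e-08). Top2a, the topoisomerase II isoform of dividing cells that etoposide binds, was the most abundant mitosis mRNA that was not called (-0.46 ± 0.17, adjusted p = 0.0381). Of 7 genes of topoisomerases and the enzymes that free them from DNA, edgeR and DESeq2 called 0, and 1 had an unadjusted p under 0.05.

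Promoters of mitotic genes often carry a CHR element with the letters TTTGAA, which repressor complexes downstream of p53 and p21 bind, near CCAAT boxes. Both motifs were searched on both strands in the 300 bases of each RefSeq promoter on GRCm38.p6. TTTGAA was found for 16 of 20 fallen mitosis genes with a promoter in the table (80%) and for 9 of 14 that had not fallen (64.3%). It was found for 14.1% of all tested genes and in 17.9% of all promoters. CCAAT was found for 95% of the fallen genes, 92.9% of those that had not fallen, 43.8% of tested genes and 37.4% of all promoters. The 150 bases before the start are shown for 3 genes that fell and 1 that rose, with either motif or its reverse complement in capitals. Ube2c is at chr2:164769779-164769928, Cdkn3 at chr14:46760391-46760540, Plk1 at chr7:122159285-122159434 and Psrc1 at chr3:108383688-108383837, all on the forward strand.
Ube2c: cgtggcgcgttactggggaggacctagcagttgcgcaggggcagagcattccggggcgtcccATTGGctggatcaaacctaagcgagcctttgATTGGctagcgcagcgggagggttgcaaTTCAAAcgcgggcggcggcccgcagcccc
Cdkn3: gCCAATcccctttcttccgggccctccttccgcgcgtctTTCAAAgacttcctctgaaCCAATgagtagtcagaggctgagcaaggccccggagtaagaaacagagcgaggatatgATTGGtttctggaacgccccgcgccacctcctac
Plk1: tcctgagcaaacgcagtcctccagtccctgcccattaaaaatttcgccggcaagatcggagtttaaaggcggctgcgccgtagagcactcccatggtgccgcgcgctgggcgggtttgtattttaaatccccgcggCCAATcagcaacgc
Psrc1: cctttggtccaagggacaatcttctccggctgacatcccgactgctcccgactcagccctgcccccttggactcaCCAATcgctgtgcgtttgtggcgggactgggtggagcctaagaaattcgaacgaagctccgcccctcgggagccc
In these windows TTTGAA occurs in Ube2c and Cdkn3, and CCAAT in all 4. A match is a description of letters and was not tested as a site.

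Replication and repair genes moved less than mitotic genes. Of 37 replication genes tested, 1 rose and 3 fell with a median of -0.08. Rrm2, a subunit of ribonucleotide reductase, held 145, 127, 103 and 78.1 CPM in LPS and 300.5, 223, 209 and 165 CPM in LPS+ET, and rose by 0.79 ± 0.14 (adjusted p = 0.00025). Mcm2, a subunit of the replicative helicase, held 189, 147, 163 and 132 CPM in LPS and 134, 93.5, 115 and 87.8 CPM in LPS+ET. The ranges overlapped, yet the level was lower in every pool, and the change was -0.82 ± 0.14 (adjusted p = 0.00013). Ccne1, cyclin E1, was at -1.08 ± 0.19 (adjusted p = 0.00020), and Rpa3 also fell. Mcm7 was at 0.30 ± 0.14 (adjusted p = 0.096). Among 24 genes of break signalling and repair, only Chek2, the checkpoint kinase that ATM activates, was called higher (1.87 ± 0.46, adjusted p = 0.0036), and only H2afx lower. Chek2 lost its call without the block (adjusted p = 0.0116), without pool LUL15 (0.0165) and without LUL18 (0.0283). Of 21 replication histone genes tested among 51 listed, 5 fell. Hist1h4i was at -1.31 ± 0.18 (adjusted p = 1.8e-05). Histone genes are near-identical copies, so tags may be split between them.

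B cell identity genes were lower in LPS+ET light polysomes. Of 15 transcription factors tested, 10 fell and 1 rose, Spib, with a median of -1.17. Ikzf1, which encodes Ikaros, held 91.0, 85.1, 85.6 and 77.7 CPM in LPS and 18.1, 27.9, 22.1 and 26.3 CPM in LPS+ET. It was lower in every LPS+ET gradient, at -1.94 ± 0.16 (adjusted p = 3.9e-08). Irf8, a factor of germinal centre B cells and myeloid cells, was at -1.99 ± 0.19 (adjusted p = 1.7e-07). Mef2c, which acts in B cell proliferation, was at -1.89 ± 0.17 (adjusted p = 1.0e-07). Ebf1, a factor that sets B lineage identity, was at -1.75 ± 0.18 (adjusted p = 4.5e-07). Irf4, a factor of plasma cell differentiation, was at -0.02 ± 0.14 (adjusted p = 0.917), with the sign turning under other settings.

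Surface receptors and signalling proteins of B cells followed the same direction, with 17 of 23 lower, 1 higher, Cd80, and a median of -0.88. Cd22, an inhibitory receptor of the B cell receptor, held 309, 247, 301 and 258 CPM in LPS and 57.6, 129, 52.8 and 51.2 CPM in LPS+ET. Its log2 change was -2.25 ± 0.20 (adjusted p = 6.6e-08), and the LPS+ET gradient of pool LUL16 was the highest of its group. Cd180, a TLR4-like receptor, was at -1.71 ± 0.15 (adjusted p = 9.2e-08) and Fcer2a, the low-affinity IgE receptor CD23, at -1.87 ± 0.19 (adjusted p = 4.1e-07). Cd79a, the signalling chain of the B cell receptor, was at -1.03 ± 0.19 (adjusted p = 0.00028), and Blnk, its adaptor, at -0.88 ± 0.14 (adjusted p = 6.8e-05). Sdc1, the plasma cell marker CD138, held 4.36, 3.24, 1.33 and 1.07 CPM in LPS and 52.1, 21.9, 20.6 and 16.9 CPM in LPS+ET, and rose by 3.30 ± 0.33 (adjusted p = 3.3e-07). Prdm1, Xbp1, Irf4 and Igj, the other plasmablast markers tested, were not called, but without pool LUL16 Igj was called higher (0.93, adjusted p = 1.0e-05). The part of cell mixture in these changes was not tested.

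Of 10 genes of antigen presentation by MHC class II, 6 fell, and the median was -0.66. By mean CPM the median was -0.61, -0.56 and -0.65 in pools LUL15, LUL17 and LUL18 and 0.12 in LUL16. Ciita, the transactivator of these genes, was at -1.41 ± 0.19 (adjusted p = 1.3e-05). H2-DMa, a chain of the peptide exchanger, was at -1.26 ± 0.19 (adjusted p = 4.8e-05). H2-Eb1, a class II β chain and among the most abundant mRNAs, was at -0.56 ± 0.16 (adjusted p = 0.0098). That call was lost without the block (adjusted p = 0.244), with equal weight for each fraction (0.0559), with RLE scaling (0.0106), without the shallowest library (0.0104) and without pool LUL15, LUL17 or LUL18 (0.0677 to 0.0753). H2-DMa also missed the threshold without the block (adjusted p = 0.0889), and H2-Ab1 was at -0.33 ± 0.18 (adjusted p = 0.154). MHC class I genes gave 1 rise and 2 falls among 12, close to the shares of all genes tested (12.7% higher and 11.9% lower). Tap1, a peptide transporter, rose by 0.67 ± 0.13 (adjusted p = 0.00041), and Psmb10, an immunoproteasome subunit, was at -0.79 ± 0.15 (adjusted p = 0.00054). H2-K1 was not called (0.16 ± 0.13, adjusted p = 0.354).

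Immunoglobulin constant genes gave 3 falls and 1 rise among 9. Iglc2, a λ light chain, held 4305, 4204, 4172 and 3654 CPM in LPS and 1941, 1572, 2523 and 1746 CPM in LPS+ET. That is a change of -1.16 ± 0.16 (adjusted p = 1.9e-05) with groups that did not overlap. Ighg2b held 143, 178, 89.2 and 116 CPM in LPS and 23.4, 111, 31.05 and 29.2 CPM in LPS+ET, at -1.88 ± 0.22 (adjusted p = 2.5e-06). Its LPS+ET gradient of pool LUL16 reached into the LPS range. Ighg3 was at -0.90 ± 0.20 (adjusted p = 0.0014), Ighg1 rose by 1.30 ± 0.29 (adjusted p = 0.0019) and Igkc was not called (-0.50 ± 0.19, adjusted p = 0.0416). Without the block none of Ighg2b, Ighg3 and Ighg1 was called (adjusted p = 0.0427, 0.0867 and 0.225). Ighg1 also missed the threshold without pool LUL15 (adjusted p = 0.0124), and was at 1.03 without LUL16 (adjusted p = 0.0290) and at 0.43 without the LPS+ET gradient of LUL16 and without the block (adjusted p = 0.700). These constant regions are close copies of each other, so tags may be split. All immunoglobulin genes held 4.44 ± 0.86% of light polysome tags in LPS and 3.61 ± 1.10% in LPS+ET (SD, n = 4). By pool the share was 3.36, 4.51, 5.46 and 4.45% in LPS and 2.37, 3.48, 5.04 and 3.56% in LPS+ET. It was lower in LPS+ET in every pool. The exact permutation test, which does not pair gradients by pool, gave an adjusted p of 0.429.

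Immediate early genes were higher on the whole, with 8 of 16 higher, 1 lower, Zfp36, and a median of 0.52. Nr4a1, an orphan nuclear receptor, held 85.3, 67.7, 34.3 and 99.4 CPM in LPS and 258, 257, 129.7 and 279 CPM in LPS+ET. Pool LUL17 was lowest in both treatments, and the change was 1.58 ± 0.15 (adjusted p = 1.3e-07). The AP-1 subunits Fosl2 (3.47 ± 0.39, adjusted p = 1.4e-06), Fos (3.68 ± 0.51, adjusted p = 1.7e-05) and Junb (1.01 ± 0.16, adjusted p = 8.6e-05) rose as well. Jund was at -0.21 ± 0.15 (adjusted p = 0.306).

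NF-kB genes and cytokines gave 2 rises and 2 falls among 17, close to the shares of all genes tested (12.7% higher and 11.9% lower). Ccl22, a chemokine, rose by 1.01 ± 0.18 (adjusted p = 0.00025) and Nfkb2 by 0.70 ± 0.14 (adjusted p = 0.00080). Tnf, an inflammatory cytokine, was at -1.78 ± 0.35 (adjusted p = 0.00057), Nfkb1 also fell, and Nfkbia was at -0.38 ± 0.17 (adjusted p = 0.085). Interferon-response genes were lower in 7 of 23 cases and higher in 1, Igtp, with a median of -0.47. Ifit3 was at -2.29 ± 0.29 (adjusted p = 5.7e-06), Ifit2 at -1.62 ± 0.23 (adjusted p = 2.1e-05) and Oasl1 at -1.33 ± 0.19 (adjusted p = 2.1e-05), which all act against viral RNA. Stat2, a factor of type I interferon signalling, was at -0.99 ± 0.15 (adjusted p = 3.8e-05).

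Of 33 genes of Myc and ribosome biogenesis, 6 fell and 2 rose, with a median of -0.44 and pool medians by mean CPM of -0.33 to -0.05. Myc itself was at -1.81 ± 0.22 (adjusted p = 3.9e-06), and Nop16, a nucleolar target of Myc, at -1.05 ± 0.21 (adjusted p = 0.00080). Ddx21, a nucleolar helicase, rose by 1.02 ± 0.18 (adjusted p = 0.00024), as did Pes1. Of 13 translation factors, Eif4e, the cap-binding protein, was at -1.26 ± 0.16 (adjusted p = 9.4e-06) and Eif5a at -0.77 ± 0.18 (adjusted p = 0.0022). Eif3a, a subunit of the initiation factor eIF3, rose by 0.84 ± 0.20 (adjusted p = 0.0028). Eif5a and Eif3a lost their calls without the block (adjusted p = 0.0673 and 0.0345) and without pool LUL17 (0.0262 and 0.0377). With equal weight for each fraction Eif5a was at -0.42 (adjusted p = 0.0396). Eef2, the abundant elongation factor, was at 0.22 ± 0.15 (adjusted p = 0.271).

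Of 67 ribosomal protein genes tested among 81 listed, 8 fell, a share close to the 11.9% of all genes tested, and 1 rose. The median was -0.28 in the fit, and by mean CPM -0.11, -0.38, -0.02 and 0.05 in the 4 pools. Rps20 held 33095, 24020.5, 32804 and 23720.0 CPM in LPS and 22904, 15320.4, 21324 and 15877 CPM in LPS+ET, which made it 1 of the 5 most abundant mRNAs. It was at -0.73 ± 0.16 (adjusted p = 0.0012). Rpl32 was at -0.67 ± 0.14 (adjusted p = 0.0011) and Rps25 at -0.76 ± 0.16 (adjusted p = 0.0012). All 3 missed the threshold without the block (adjusted p = 0.0483, 0.0248 and 0.0986). Rps27l, a paralog of Rps27 that is a known p53 target, was the member that rose (1.23 ± 0.14, adjusted p = 2.1e-06). Many of these genes have processed pseudogenes, so tags may be split. Their share of all tags was 6.62 ± 0.76% in LPS and 5.55 ± 0.71% in LPS+ET (SD). By pool the share was 7.29, 5.98, 7.25 and 5.95% in LPS and 6.03, 4.65, 6.19 and 5.35% in LPS+ET. It was lower in LPS+ET in every pool. The exact permutation test, which does not pair gradients by pool, gave an adjusted p of 0.429 for it. The smallest p this design of 70 splits allows is 0.0286 before adjustment.

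Of 15 genes of the integrated stress response, 3 fell and 1 rose, against 11.9% and 12.7% of all genes tested, and the median was -0.31. By mean CPM it was -0.43, -0.51 and -0.43 in pools LUL15, LUL17 and LUL18 and 0.25 in LUL16. Atf4, its central factor, held 2002, 1858, 2638 and 2432 CPM in LPS and 807, 1093, 1167 and 1164 CPM in LPS+ET. All LPS+ET gradients were lower, at -1.13 ± 0.16 (adjusted p = 2.3e-05). Slc3a2 and Chac1 were the other falls, and Cebpb, a bZIP factor, rose by 1.47 ± 0.16 (adjusted p = 1.4e-06). Of 18 genes of folding in the endoplasmic reticulum, 4 fell and 1 rose, with a median of -0.36 and pool medians by mean CPM of -0.57 to 0.01. Herpud1, a factor of ER-associated degradation, was at -1.20 ± 0.13 (adjusted p = 1.2e-06) and Sdf2l1 at -1.12 ± 0.18 (adjusted p = 6.8e-05). Canx, the chaperone calnexin, rose by 0.67 ± 0.14 (adjusted p = 0.0013), and Manf was at -0.54 ± 0.18 (adjusted p = 0.0217).

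Genes of cholesterol metabolism were lower, with 14 of 18 called lower and a median of -0.86. Sqle, squalene epoxidase, was at -1.84 ± 0.16 (adjusted p = 7.1e-08), Hmgcs1, HMG-CoA synthase, at -1.80 ± 0.16 (adjusted p = 1.1e-07) and Sc4mol, a sterol methyl oxidase, at -1.33 ± 0.15 (adjusted p = 1.4e-06). In the LPS+ET gradient of pool LUL16 the list's median difference from LPS was -0.20, against -0.92, -0.91 and -0.97 in LUL15, LUL17 and LUL18. Glycolysis gave 1 fall, Pfkp, among 11, and a median of -0.17 that hid a split between pools. The pool medians were -0.49, -0.44 and -0.72 in LUL15, LUL17 and LUL18 and 1.37 in LUL16. Aldoa was at 0.15 ± 0.23 (adjusted p = 0.637), and -0.12 without pool LUL16.

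BCL2 family genes outside the p53 list gave 3 falls and 1 rise among 10. Their median was -0.26, and -0.02 with equal weight for each fraction. Bcl2, the survival protein, held 206, 179, 149 and 162 CPM in LPS and 60.2, 85.3, 53.7 and 44.5 CPM in LPS+ET, at -1.74 ± 0.16 (adjusted p = 8.3e-08). Bid was at -1.51 ± 0.16 (adjusted p = 5.5e-07) and Bak1 at -0.80 ± 0.16 (adjusted p = 0.00084), both promoters of death. Bak1 lost its call without the block (adjusted p = 0.197) and without pool LUL17 (0.0110). Bcl2l11, the BH3-only protein Bim, rose by 1.14 ± 0.16 (adjusted p = 2.0e-05). Mcl1 was not called (-0.24 ± 0.13, adjusted p = 0.164). Among 11 tubulins, Tubb6 held 4.79, 3.39, 4.65 and 2.93 CPM in LPS and 73.5, 74.4, 77.4 and 68.2 CPM in LPS+ET. It rose by 3.86 ± 0.24 (adjusted p = 8.6e-10) with little spread. Tuba1c, which has close copies, was at -0.91 ± 0.17 (adjusted p = 0.00031), and Tuba4a also fell. Of 9 RNA-binding proteins of mRNA stability and granules, Elavl1, which encodes HuR, was at -0.72 ± 0.15 (adjusted p = 0.00090) and Caprin1 also fell. Of 7 mitochondrially encoded mRNAs, edgeR called 0, DESeq2 2 higher, and 3 had an unadjusted p under 0.05, with mt-Nd4 at -0.47 ± 0.43 (adjusted p = 0.407). Their share of tags was 6.74 ± 2.44% in LPS and 8.33 ± 4.77% in LPS+ET (SD, exact permutation test without pairing, adjusted p = 0.571). This share was lower in LPS+ET in pool LUL16 and higher in the other pools. In 5 bins of genomic gene length with 2128 or 2129 genes each, 506 to 531 genes were called.

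**Figure D2:**
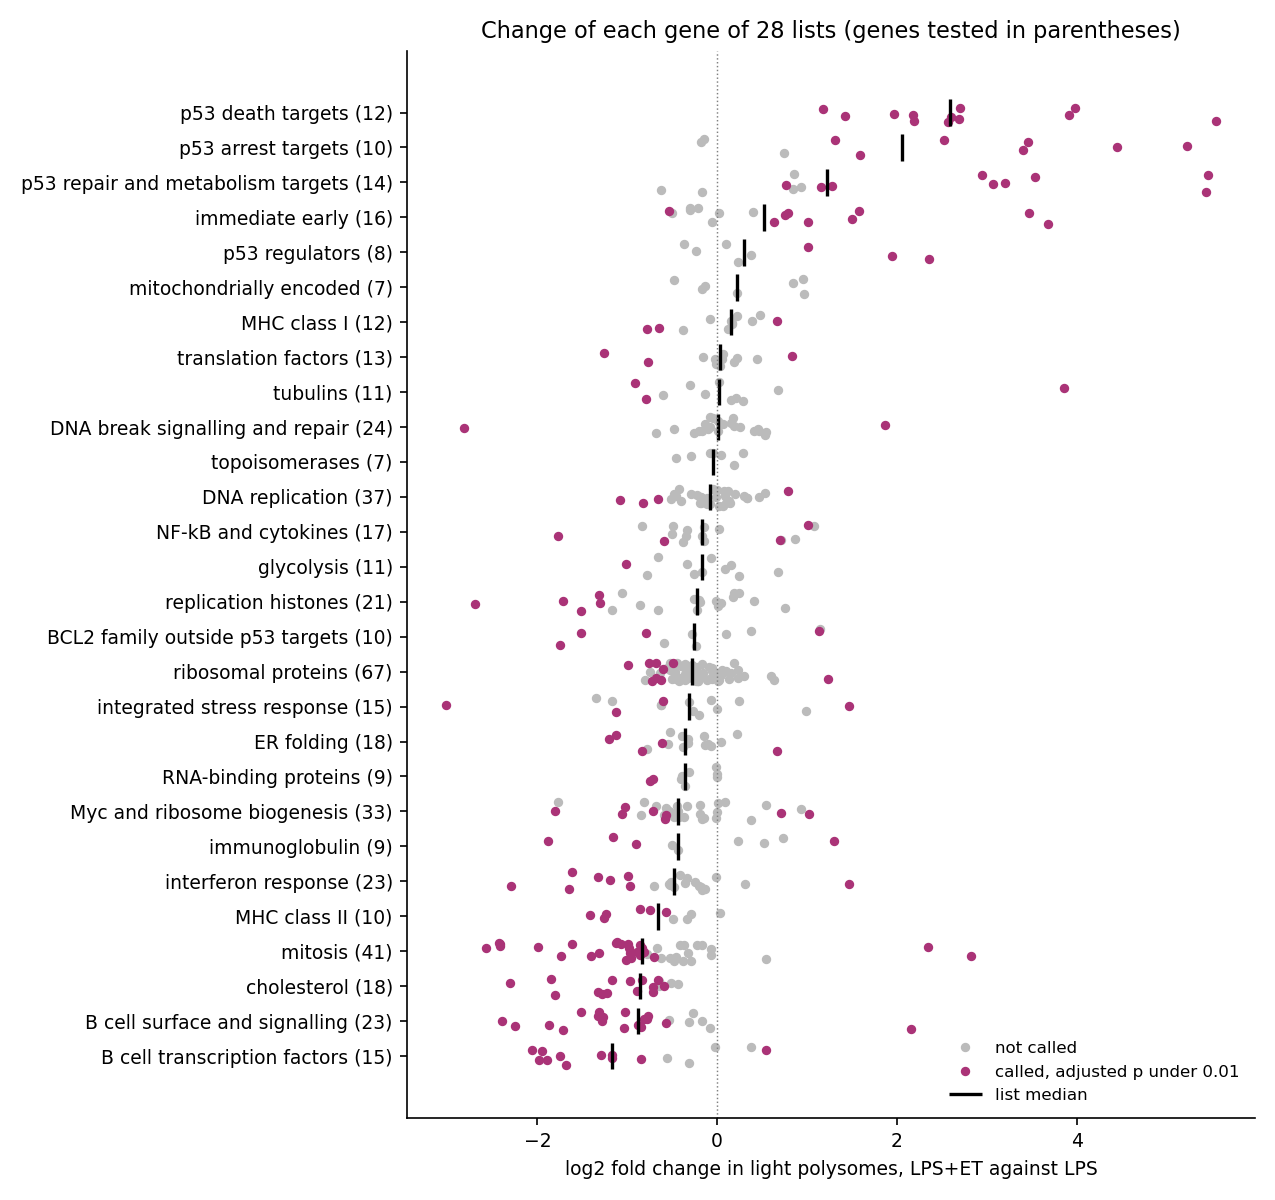
Log2 change of LPS+ET against LPS in light polysomes for every tested gene of 28 lists; purple points were called at an adjusted p under 0.01 and bars mark list medians. The 3 lists of p53 targets have the highest medians (2.59, 2.06 and 1.22), and B cell transcription factors the lowest (-1.17).

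The 3 fractions of the light polysomes gave similar pictures when tested singly. In fraction 8, 1797 of 9180 genes were called (19.6%), in fraction 9, 1330 of 8311 (16.0%) and in fraction 10, 1273 of 8373 (15.2%). Of 2218 genes called in the sum and tested in all 3 fractions, 2194 had the same sign in each and 738 were called in each. Cdkn1a changed by 4.38, 4.48 and 4.84 in fractions 8, 9 and 10. Trp53 was at -0.09, 0.09 and 0.28, and Hif1a, the oxygen-regulated factor, at 0.11, 0.52 and 0.72. Without the block 774, 441 and 495 genes were called in the 3 fractions.

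The light polysome changes were set beside those of heavy polysomes and monosomes of the same gradients. With the same test 2475 of 12112 genes were called in heavy polysomes (20.4%) and 2351 of 9654 in monosomes (24.4%). Of 2592 light-called genes tested in heavy polysomes, 1565 were called there with the same sign and 15 with the opposite sign. Of 2422 tested in monosomes, the counts were 1391 and 11. A total of 970 genes were called in all 3 classes. The difference between classes was tested itself, as the interaction of class and treatment with a term for every gradient. Between light and heavy polysomes, 44 of 12276 genes passed (0.358%), 32 with the higher change in light polysomes. Between light polysomes and monosomes, 336 of 11036 passed (3.04%), 147 with the higher change in light polysomes.

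No change of Trp53 passed the threshold of 0.01 in any of the 3 classes. Its log2 change was 0.68 in heavy polysomes (adjusted p = 0.0171), 0.10 in light polysomes and -0.46 in monosomes (adjusted p = 0.0263). The change in light polysomes was lower than in heavy polysomes by 0.76 (difference -0.76, adjusted p = 0.116) and higher than in monosomes by 0.57 (adjusted p = 0.0356). Hif1a was at 0.39 ± 0.14 in light polysomes (adjusted p = 0.0296), 0.73 in heavy polysomes and 0.77 in monosomes. In light polysomes it was under the threshold with equal weight for each fraction (0.55, adjusted p = 0.0021) and without pool LUL16 (0.48, adjusted p = 0.0065). H2-K1 was at 0.16 in light polysomes, 0.65 in heavy polysomes (adjusted p = 0.013) and 0.24 in monosomes.

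Many mRNAs with a higher change in light than in heavy polysomes encode very large proteins. Herc2, a giant ubiquitin ligase of the DNA damage response with a coding length of 14508 bases, held 11.8, 8.10, 7.69 and 11.2 CPM in LPS light polysomes and 39.2, 30.95, 25.4 and 28.4 CPM in LPS+ET. It rose there by 1.71 ± 0.20 (adjusted p = 2.1e-06) and was at -1.35 in heavy polysomes (adjusted p = 6.0e-05), a difference of 2.82 ± 0.24 (adjusted p = 7.9e-07). Its heavy polysome level was 48.5, 51.3, 25.97 and 27.7 CPM in LPS and 41.04, 19.2, 15.8 and 20.0 CPM in LPS+ET, which overlap. These summed tags weigh the fractions unequally, since fraction 16 held 699623 to 1088275 tags in LPS and 51226 to 317204 in LPS+ET. With equal weight for each fraction Herc2 was at -0.68 ± 0.21 in heavy polysomes (adjusted p = 0.0362), and the difference was 2.27 (adjusted p = 0.0050). Mycbp2, a ubiquitin ligase with 14238 coding bases, held 14.8, 10.9, 16.4 and 22.3 CPM in LPS and 29.5, 28.5, 35.98 and 29.2 CPM in LPS+ET. Its difference between light and heavy polysomes was 2.45 ± 0.28 (adjusted p = 2.9e-05). Rnf213, a ubiquitin ligase with an AAA+ core, held 244, 193, 94.1 and 165 CPM in LPS and 331, 313, 156 and 199 CPM in LPS+ET. These ranges overlapped, and the change in light polysomes was 0.62 ± 0.19 (adjusted p = 0.0156), against -1.77 in heavy polysomes, a difference of 2.18 ± 0.25 (adjusted p = 3.7e-05). With equal weight for each fraction Rnf213 was at -0.97 ± 0.18 in heavy polysomes, and the difference missed the threshold (adjusted p = 0.0452). Mll2, a histone methyltransferase under its older symbol, differed by 2.16 ± 0.22 (adjusted p = 1.3e-05), Herc1 by 2.13 ± 0.23 (adjusted p = 1.4e-05) and Mdn1, a giant ATPase of ribosome assembly, by 2.71 ± 0.30 (adjusted p = 2.0e-05). With equal weight the difference of Mdn1 was 2.28 and was not called (adjusted p = 0.0209), while Mycbp2, Mll2 and Herc1 stayed under 0.01. Among the 12 genes with the lower change in light polysomes were Per1 (-1.67 ± 0.25, adjusted p = 0.00068), Mcm2 (-1.53, adjusted p = 0.0096) and Ighg2b (-1.44 ± 0.26, adjusted p = 0.0058). These 3 calls did not hold throughout. With equal weight Mcm2 was at -0.82 (adjusted p = 0.0722) and Ighg2b at -1.31 (adjusted p = 0.108), and with only the LPS and LPS+ET gradients the adjusted p was 0.0103 for Per1, 0.0435 for Mcm2 and 0.0151 for Ighg2b. Each lost its call without LUL15, LUL17 or LUL18, and Mcm2 also with RLE scaling (adjusted p = 0.0249).

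**Figure D3:**
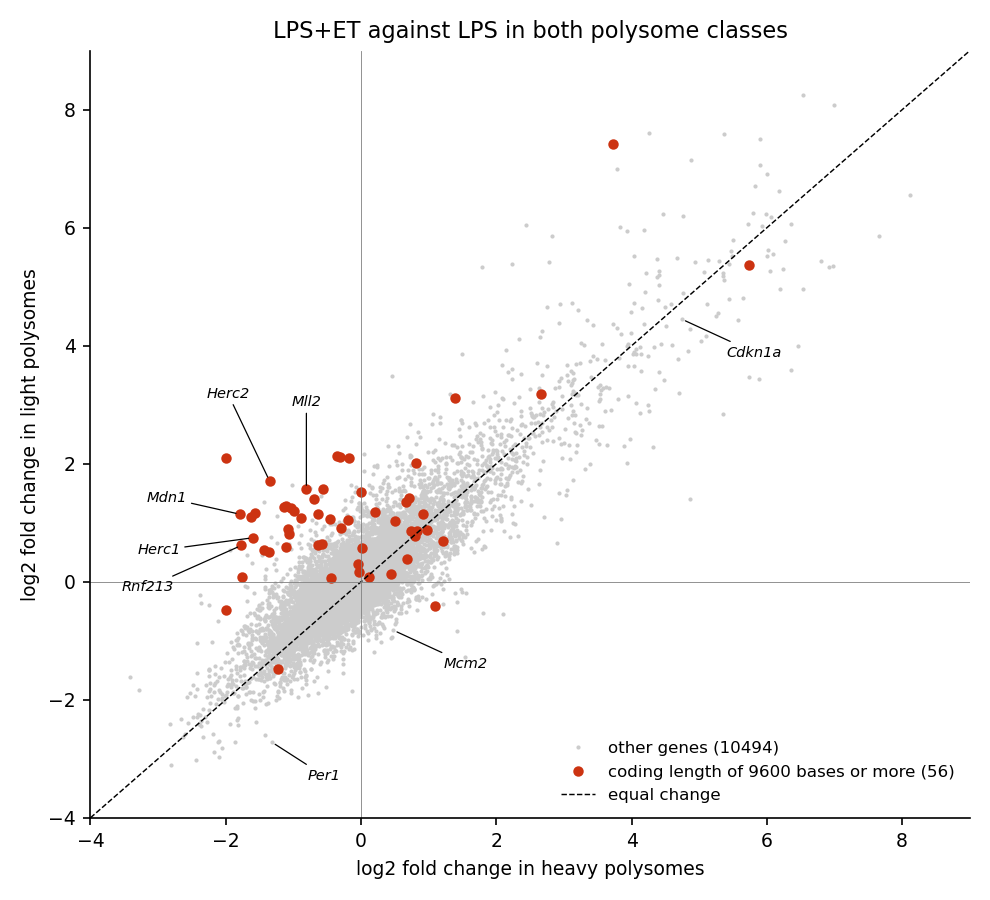
Log2 change of LPS+ET against LPS in heavy polysomes (horizontal) and light polysomes (vertical), 1 point a gene, from summed tags; red marks coding lengths of 9600 bases or more, and the dashed line equal change. Of the 56 red points, Herc2, Mll2, Herc1, Mdn1 and Rnf213 lie above 0 in light polysomes and below 0 in heavy polysomes.

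A coding length could be read for 30 of the 32 genes with the higher change in light than in heavy polysomes. Their median was 12759 bases, against 1392 for all genes tested, and 22 of them had 9600 or more. The grouping by this length was chosen after these values were seen and is a description without a test. Of 56 such genes tested in light polysomes, 31 were called higher and 1 lower (57.1% called, against 24.9% of all protein-coding genes with a length), and the median was 1.05. In monosomes, where no fit with equal weight is given, the median was -0.03 in the summed tags. In heavy polysomes it was -0.30 in the summed tags, where 20 of 61 were lower and 3 higher (against 10.6% and 9.88% of all genes tested), but -0.04 with equal weight for each fraction, where 4 of 59 were lower and 3 higher and the median of all protein-coding genes was 0.06. The difference between light and heavy polysomes was above 0 for 49 of 64 and called for 22 (34.4%, against 0.341%), with a median of 1.05. With equal weight it was above 0 for 46 and called for 11, with the same median of 1.05. Of the 44 genes called between the classes in the summed tags, 19 were among the 30 called with equal weight. The fit of heavy polysomes with equal weight was added after seeing the data. In the summed tags the medians for coding lengths of 7200 to under 9600 bases were 0.18 in light and -0.43 in heavy polysomes. Coding lengths below 1200 bases gave -0.09 and -0.12 in the same tags. No values with equal weight for each fraction are given for these lengths.

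**Figure D4:**
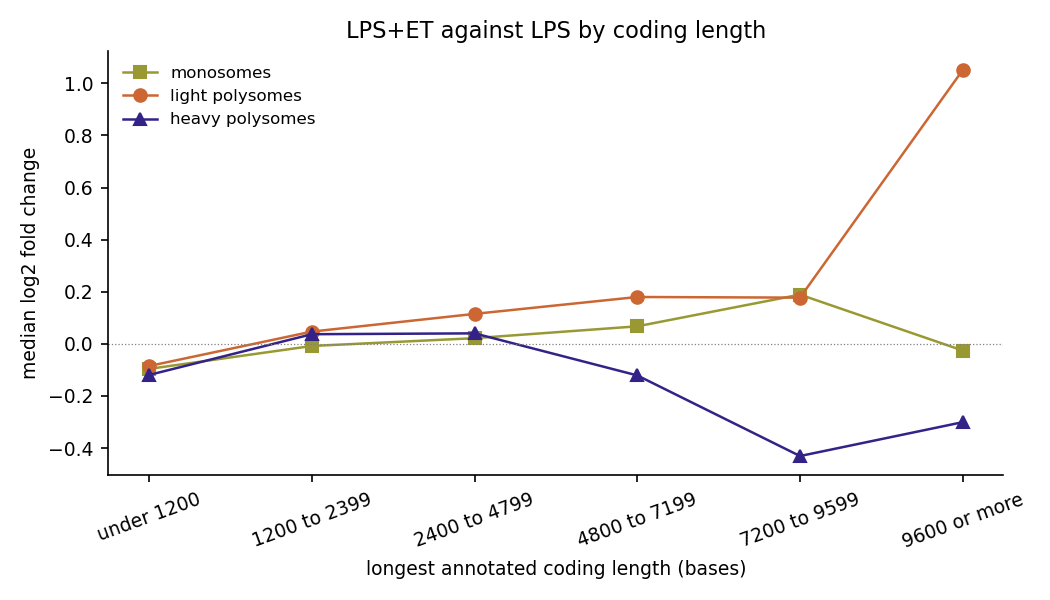
Median log2 change of LPS+ET against LPS by longest annotated coding length (bases) in monosomes, light and heavy polysomes, from summed tags. The light polysome median is 1.05 at 9600 bases or more and between -0.09 and 0.18 in the shorter bins.

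The shift of the long mRNAs was seen in every pool. The group was chosen after results of these same pools were seen, so this is a description and not a separate check. The 64 genes summed to 1680, 1226, 1209 and 1525 CPM in LPS light polysomes and to 2879, 2548, 2706 and 2682 CPM in LPS+ET. In heavy polysomes they summed to 3999, 4140, 3389 and 3124 CPM in LPS and 3172, 3518, 2382 and 2765 CPM in LPS+ET, with overlapping ranges. In monosomes the sums were 1001, 716, 1302 and 1159 CPM in LPS and 1271, 1109, 1423 and 1257 CPM in LPS+ET. These were higher in LPS+ET in every pool, though the ranges overlapped. The ratio of the light to the heavy sum was 0.39 ± 0.08 in LPS and 0.93 ± 0.17 in LPS+ET (SD), without overlap. For the 4070 genes of 1200 to under 2400 coding bases it was 0.72 ± 0.07 and 0.81 ± 0.09 (SD). The median change of the long mRNAs in light polysomes was 0.75, 1.02, 0.88 and 0.78 in the 4 pools, and 0.87 to 1.06 when each pool was left out in turn. It was 0.89 with equal weight for each fraction, where the median of all protein-coding genes was 0.12.

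Along the gradient the long mRNAs were higher in LPS+ET, on average, in fractions 6 to 11, and lower in the other fractions. They held 683 ± 179 CPM (SD, as for the other fractions) in fraction 7 of LPS and 2228 ± 513 CPM in LPS+ET. In fraction 8 the values were 1396 ± 377 and 3603 ± 1196 CPM, in fraction 9, 1668 ± 468 and 3012 ± 1033 CPM, and in fraction 10, 1166 ± 259 and 1496 ± 255 CPM. The libraries of fraction 7, the last of the monosomes, held 325443 to 708270 tags in LPS and 164268 to 342052 in LPS+ET. The ranges of the long mRNAs overlapped between treatments in fractions 9 and 10 and lay apart in fractions 7 and 8. The neighbouring fractions were higher as well, with 568 ± 105 and 865 ± 120 CPM in fraction 6, where the ranges just overlapped, and 914 ± 117 and 2062 ± 1198 CPM in fraction 11, the first of the heavy polysomes. The lowest LPS+ET gradient of fraction 11, at 1260 CPM, lay above the highest LPS gradient, at 1051 CPM. The highest, at 3840 CPM, was that of pool LUL16, whose library held 54686 tags. In fraction 15 the means were 6007 and 3940 CPM, with ranges that overlapped. In fraction 16, the heaviest, they were 9883 ± 1207 and 7569 ± 684 CPM, and the ranges lay apart. Of the 64 genes, 32 were counted at most 100 bases from the end of an annotated transcript. For these the median difference between light and heavy polysomes was 1.597, with 28 above 0 and 15 called. The other 32, counted elsewhere, had a median of 0.29, with 21 above 0 and 7 called. No long gene was counted in a coding exon, and 25 were counted in an intron or outside the gene.

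**Figure D5:**
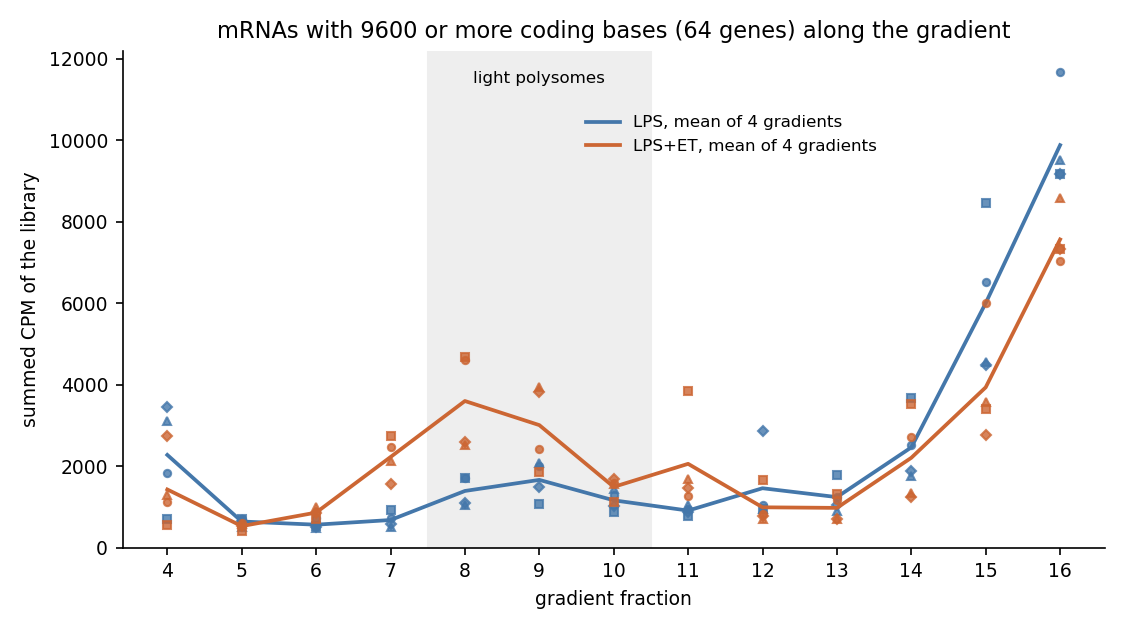
Summed CPM of the 64 mRNAs with 9600 or more coding bases in each gradient fraction; points are gradients, lines the mean of 4, and the shaded band the light polysomes. The LPS+ET mean lies above the LPS mean in fractions 6 to 11, which include fraction 11 of the heavy polysomes, and below it elsewhere.

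Against monosomes, ribosomal protein mRNAs were among those with the lower change in light polysomes. Of 75 ribosomal protein genes tested, 8 had a lower change in light polysomes than in monosomes, against 1.71% of all genes. In monosomes 9 of 74 rose, close to the 12.3% of all genes, and in heavy polysomes 12 of 70 fell, against 10.6%. Rps20 rose in monosomes by 0.48 and differed by -1.19 between light polysomes and monosomes (adjusted p = 5.2e-06). Lpar6, a lysophosphatidic acid receptor, differed by -1.87 ± 0.22 (adjusted p = 2.4e-07), Atxn7l3b by -1.69 (adjusted p = 2.8e-06) and Ybx3, an RNA-binding cold shock protein, by -1.21 (adjusted p = 2.8e-06). Gm7536, listed as protein coding, differed by -1.38 (adjusted p = 1.6e-06). On the other side, Ly6d, a B lineage surface protein, differed by 1.38 (adjusted p = 2.4e-07), with -0.19 in light polysomes and -1.55 in monosomes. Mt1, a metallothionein, differed by 1.54 (adjusted p = 4.4e-07). Of the long mRNAs, 15 of 59 had the higher change in light polysomes, against 139 of 10110 protein-coding genes with a length. Their median difference from monosomes was 1.09 in the summed tags. Over all genes this comparison had 336 calls in the summed tags and 76 with equal weight for each fraction.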

How the data were processed

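Libraries of 3′ end tags were made from each gradient fraction. The deposited values are counts: the authors removed duplicates by random barcode bases, trimmed A tracts, aligned tags to GRCm38 (mm10) and added up tags of each Ensembl gene. The submitters' notes name TopHat2 2.0.12, HTSeq and DESeq2 1.6.3, without saying which served these libraries, and the aligner of the 3′ libraries is not given in the sources used here. Of the table's columns, 79 matched 1 sample and 78 a treatment and fraction only; each carries its pool.

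Counts of fractions 8 to 10 were added up per gradient (12 gradients, with the inhibitor group), filtered with filterByExpr, scaled by TMM and tested with edgeR 4.0.16 (R 4.3.3) by quasi-likelihood, two-sided, with Benjamini-Hochberg adjustment, a threshold of 0.01 and the pool as a block. Log2 changes come from this fit and CPM from each library's total. The SE given with an edgeR log2 change is its absolute value divided by the square root of the F statistic. The test itself gives no SE, so this is an approximation. Differences between classes were tested as interactions with a term for each gradient. Pairing was checked on 7340 genes: deviations from the treatment means correlated at r = 0.39 to 0.78 in 12 of 12 pairs of 1 pool and at -0.67 to 0.46 between pools. Shares of counts were compared with exact two-sided permutation tests over 70 splits, which do not pair gradients by pool. DESeq2 1.42.0 and limma 3.58.1 gave alternatives. The kinds of fit used for light polysomes, and the edgeR fit of light against heavy polysomes, were run on simulated data, with results not reported here. A symbol of several gene IDs stands for the ID with the highest level.

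Members and gene lists were chosen with earlier results of these data known. Genes named with values are Trp53, Hif1a, H2-K1, Cdkn1a and Gadd45a; the 10 largest rises and 10 largest falls among called protein-coding genes with 1 direction in all pools and a mean of 20 or more counts; in each list up to 4 called genes with the smallest adjusted p and the most abundant one not called; the 6 with the smallest adjusted p in each interaction; and the 5 most abundant. Of 161 such genes, 138 were counted at most 100 bases from an annotated transcript end. Genes named beside a count as its remaining members were chosen after their values were seen. List members missing from the table were not used here, and some genes that these rules name are not reported here.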

Additional observations from a re-analysis of the deposited data

Results flagged for a closer look

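In 8 of 60 groups of 4 gradients, 1 gradient lay far from the other 3 (Dixon's test), where chance flags about 1 group in 20. Cdkn1a was lowest in LPS+ET at 632 CPM and Nr4a1 at 129.7 CPM, both in pool LUL17, where Mycbp2 was highest in LPS+ET at 35.98 CPM. Pool LUL15 held the highest LPS+ET level of Ccng1 (1297 CPM) and Sdc1 (52.1 CPM). Pool LUL16 held the highest LPS+ET level of Cd22 (129 CPM) and Ighg2b (111 CPM), and pool LUL18 the highest LPS level of Mdm2 (92.4 CPM).

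The change with etoposide differed between light and heavy polysomes (interaction, edgeR adjusted p under 0.01) for 9 genes with values in the text. The difference on the log2 scale, light minus heavy, was 2.82 for Herc2, 2.71 for Mdn1, 2.45 for Mycbp2, 2.18 for Rnf213, 2.16 for Mll2 and 2.13 for Herc1. It was -1.67 for Per1, -1.53 for Mcm2 and -1.44 for Ighg2b. With equal weight for each fraction Mdn1, Rnf213, Mcm2 and Ighg2b missed the threshold (adjusted p = 0.0209, 0.0452, 0.0722 and 0.108), and with only the LPS and LPS+ET gradients Per1 (0.0103), Mcm2 (0.0435) and Ighg2b (0.0151) did.

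Between light polysomes and monosomes the change was higher in light polysomes by 2.35 for Mycbp2, 2.19 for Herc2, 1.55 for Mll2, 1.54 for Mt1, 1.44 for Herc1, 1.38 for Rnf213, 1.38 for Ly6d and 1.37 for Eif3a. It was also higher by 0.89 for mt-Nd4 and 0.75 for Gpx1. The difference was -1.87 for Lpar6, -1.69 for Atxn7l3b, -1.38 for Gm7536, -1.21 for Ybx3, -1.19 for Rps20, -1.09 for Ebf1, -0.97 for Bcl2, -0.91 for Rps25, -0.88 for Rpl32, -0.87 for Ube2c and -0.86 for H2-DMa. The difference of Atxn7l3b missed the threshold with equal weight (-1.01, adjusted p = 0.0522). Values with equal weight are not given for the other genes here. Over all genes 76 were called with equal weight, against 336 in the summed tags.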

How the results depend on the processing

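Without the replicate block 1055 genes were called in light polysomes, and 774, 441 and 495 in fractions 8, 9 and 10. An adjusted p under 0.05 gave 3967 genes in light polysomes, 100 between light and heavy polysomes and 818 between light polysomes and monosomes. Between light and heavy polysomes 97 genes were called without a low-count filter and 95 by DESeq2. Between light polysomes and monosomes 76 were called with equal weight for each fraction. Leaving out 1 pool gave 1580 to 3099 genes in light polysomes (706 to 1074 on leaving out 1 gradient without the block). Between light and heavy polysomes it gave 14 (without LUL18) to 103 (without LUL16), with 27 without LUL15 and 17 without LUL17. Between light polysomes and monosomes it gave 141 (without LUL15) to 255, with 157 without LUL18. Fractions 8, 9 and 10 gave 1012 to 1853, 636 to 1351 and 640 to 1470, with the lowest counts without LUL15 and the highest without LUL16. The mitochondrial share differed by -0.089 to 3.61 percentage points, below 0 without the LPS+ET gradient of LUL18. Without the block 28 named genes lost their call (adjusted p 0.0116 to 0.244), among them Bak1, Canx, Ccl22, Eif5a, H2-DMa, Nfkb2, Rrm2, Tap1 and Tnf. Changes near 0 turned sign. With equal weight for each fraction Sesn1 was at 0.019 (0.020 with a pseudocount of 0.25, 0.057 without the shallowest library), Irf4 at 0.032 (0.032 and 0.077) and Gpx1 at 0.068 without that library. Irf4 was at 0.031 without the block. On leaving out 1 pool or gradient, Trp53 ranged from -0.076 to 0.28, H2-K1 from -0.028 to 0.35, Irf4 from -0.25 to 0.14, Aldoa from -0.15 to 0.60 and mt-Nd4 from -0.68 to 0.21. The cause of these differences was not tested. Leaving out the shallowest library, and equal weight for each fraction in heavy polysomes, were chosen after seeing the data. Depth limits the genes with 0 to 16 tags in LPS, whose folds have wide counting intervals.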
